A study of Mus musculus with 96 samples.

Results

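Leukaemia inhibitory factor (LIF) is the cytokine that keeps mouse embryonic stem (ES) cells in culture self-renewing in serum medium. It binds a receptor made of Lifr and Il6st (gp130), the receptor-bound kinase Jak1 then phosphorylates the transcription factor Stat3, and Stat3 enters the nucleus and switches on its target genes. One of those targets, Socs3, encodes a protein that binds the activated receptor complex and holds the signal back. The genes described here are these 5 steps, Lifr, Il6st, Jak1, Stat3 and Socs3, taken by symbol as 5 of the 36205 gene rows of the deposited count table. All 5 passed the filter on low values, at least 10 counts in at least 10 cells, which kept 10868 genes.

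The study measured RNA and DNA methylation in the same single cells, and the RNA values are described here. All cells were wild-type E14, an established mouse ES line whose background the labels give as C57BL/6, and were grown in serum with LIF. Of 76 serum/LIF wells, 61 cells were analysed. The 16 wells of 2i cells and the 4 empty wells were not used here. Every cell analysed was therefore exposed to LIF, and no culture without it or with another medium was compared. Each sample is a single cell, and since the labels separate no cultures, the cells count as 1 sample of 1 condition. No test of a difference between conditions was therefore made, no p-values are given, and correlations over cells are descriptions.

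A cell held between 2417702 and 6787261 counts (median 4244480). Levels are given as CPM, counts scaled to a library of 1000000, and a count of 0, taken to allow 3 counts, corresponds to an upper limit of 0.45 to 1.26 CPM. Between 5317 and 10032 genes were detected per cell, with the fewest in the cell in well B10, and mitochondrial transcripts took up to 4.45% of counts, with the most in F07. The ES cell label was met by 8 ES marker genes, which had counts in 47 (Nanog) to 61 cells, with Pou5f1 and Sall4 in all 61. Of 8 fibroblast markers none passed the filter, Postn had counts in 0 cells, and the summed level ranged from 0 to 232 CPM with a median of 0. The summed primitive endoderm markers ranged from 0 to 212 CPM (median 0), and 1 of 8 passed the filter, Dab2, with counts in 20 cells. The trophectoderm markers ranged from 0 to 567 CPM (median 8.17), and 3 of 7 passed the filter. These were Eomes, Gata3 and Cdx2, with counts in 25, 20 and 18 cells, while Elf5 had counts in 0. The highest fibroblast sum was in the cell in G03, which had 232 CPM of Col1a2, 112 CPM of Krt7, and no counts of the ES markers Sox2, Nanog, Utf1 and L1td1. Its Pou5f1 level of 80.7 CPM was the lowest of the 61 cells, against a median of 1160. That cell also held the highest Lifr and the highest Stat3 level, so results that include it are also given without it where they moved.

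Each step of the pathway was read out in only some of the cells. Jak1 had counts in 49 of 61 cells, Stat3 in 46, Il6st in 43, Lifr in 25 and Socs3 in 21, so that 3 of the 5 were seen in more than 30 of the 61 cells, as were 68.9% of kept genes. No cell lacked counts of all 5 genes, 2 cells (C01 and G06) had counts of 1 of them, 19 of 2, 19 of 3 and 18 of 4. Only C07, F09 and G03 had counts of all 5, and in F09 those of Lifr, Stat3 and Socs3 were as few as 7, 8 and 4. A cell without counts is not shown to lack the transcript, because the cDNA of a single cell can miss one, and the labels name no molecular identifiers.

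**Figure D1:**
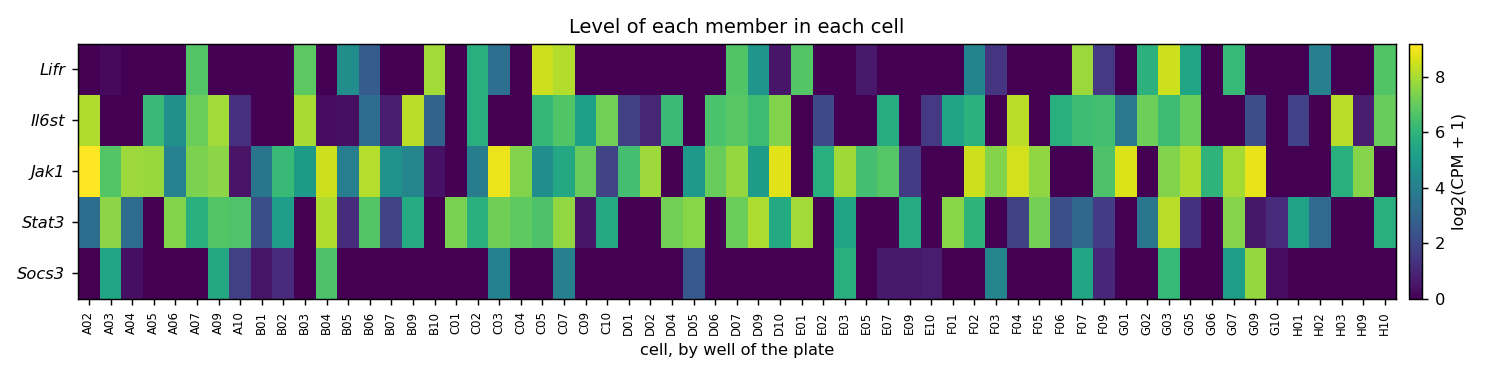
Level of the 5 genes in each of the 61 serum/LIF cells, 1 column per cell ordered by well, with colour giving log2(CPM + 1). The Jak1 row is filled in 49 cells and the Socs3 row in 21, and only C07, F09 and G03 are filled in all 5 rows. F09 had low levels of Lifr, Stat3 and Socs3 (1.86, 2.13 and 1.06 CPM).

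Stat proteins bind paired half-sites of the form TTCNNNGAA, and the stretch before the start of Socs3 is shown because it is the only member window that holds these letters. RefSeq (GRCm38.p6) gave promoter windows, from 250 bases before to 50 bases after a start, for 5 of 5 members. The motif, which reads the same on both strands, stood in 1 of 6 member windows and in 2726 of 32851 windows of all genes (8.30%). The window before the RefSeq start of Socs3 lies at chr11:117969367-117969616, minus strand, with the motif in capitals:
Socs3: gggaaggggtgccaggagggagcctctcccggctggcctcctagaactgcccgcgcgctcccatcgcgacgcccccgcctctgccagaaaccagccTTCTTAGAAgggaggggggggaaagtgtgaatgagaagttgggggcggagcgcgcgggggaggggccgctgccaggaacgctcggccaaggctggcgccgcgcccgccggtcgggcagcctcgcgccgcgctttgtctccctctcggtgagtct
The match begins 154 bases before that start, at 117969512 to 117969520. In GENCODE M21 it falls in an intron of a non-coding Socs3 transcript (117968875 to 117970047), upstream of the start of the protein-coding transcript at 117969186. In the same kind of window, the match of Sgk1, a kinase gene on the list of STAT3 targets, lies 223 bases before its start at chr10:21881951-21881979 on the plus strand, while the window of Cish, a relative of Socs3, holds 2 matches, which begin at its start and 11 bases after it, shown at chr9:107296654-107296683 on the plus strand. The matches are in capitals:
Sgk1: gaaaaaccaaTTCAAAGAAccctcccaag
Cish: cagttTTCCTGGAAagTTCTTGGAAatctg
Sgk1 held the only match in 16 windows of 10 of the 14 listed STAT3 targets, and Cish the only window with a match among 3 windows of 3 of the 7 other SOCS genes. The stricter form TTCCNGGAA, a subset of the first motif, which the first Cish match fits, was found in 377 windows (1.15%). These are matches of letters, and binding was not measured.

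Lifr (ENSMUSG00000054263, GRCm38 chromosome 15, 7090614 to 7197489, plus strand) encodes the LIF receptor subunit that pairs with gp130. It had counts in 25 cells, or 41% (exact 95% interval 28.6 to 54.3), and 20 of these had at least 10 counts. Over the 61 cells the level ran from 0 through a median of 0 to 353 CPM, with an upper quartile of 22 CPM. The highest cells were G03 (353 CPM), C05 (352) and C07 (281), followed by B10 (241) and F07 (223). Lifr transcripts were thus concentrated in a minority of cells: 3 cells held 42.7% of the summed level. The mean was 37.8 ± 83.6 CPM (SD over 61 cells), and 32.5 without the cell in G03. Among the 1257 kept genes with a mean within 25% of that of Lifr, the median gene had counts in 41 cells, and 4.22% of them were seen in fewer cells than Lifr.

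Il6st (ENSMUSG00000021756, chromosome 13, 112464070 to 112510086, plus strand) encodes gp130, the signalling subunit shared by the receptors of the IL-6 cytokine family. Counts were found in 43 cells (70.5%, 57.4 to 81.5). The level ran from 0 through a median of 8.83 to 297 CPM, with the highest values in B09 (297), F04 (296) and H03 (289). None of these 3 cells had counts of Lifr. The upper quartile was 84.1 CPM and the mean 61.0 ± 86.0 CPM (SD over 61 cells), so Il6st was spread over more cells than Lifr, and its top 3 cells held 23.7% of the sum. Both receptor genes had counts in 18 cells, Il6st alone in 25, Lifr alone in 7 and neither in 11.

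The remaining receptors of the family were sparse. Il6ra, the IL-6 receptor, and Cntfr, the ciliary neurotrophic factor receptor, each had counts in 14 cells, Il11ra1 in 4 and Osmr, the oncostatin M receptor, in 1, and 0 of these 4 passed the filter. Per kilobase of exon, the scale used for all comparisons between genes below, Il6st exceeded the highest of these 4 in 35 cells, was lower in 14, and all were at 0 in 12. Lifr exceeded it in 18 cells and was lower in 24. Of 7 ligand genes of the family 0 passed the filter. Lif itself had counts in 6 cells with a highest level of 48.1 CPM, and Il6, Osm and Clcf1 had counts in 0 of 61 cells, which allows a share of up to 4.92% of cells with counts, taken as 3 of 61, or 5.87% by the exact interval.

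Jak1 (ENSMUSG00000028530, chromosome 4, 101152367 to 101265282, minus strand), the tyrosine kinase bound to gp130, was the most widely detected of the 5, with counts in 49 cells (80.3%, 68.2 to 89.4) and at least 10 counts in 46. Its level ran from 0 through a median of 74.1 to 579 CPM, with quartiles of 2.73 and 213. The highest cells were A02 (579), C03 (479) and G09 (468), and the other cells filled the range below them without one cell dominating, since the top 3 held 19.3% of the sum. The mean was 129 ± 148 CPM (SD over 61 cells). Still, 869 kept genes with a mean within 25% of that of Jak1 had counts in a median of 58 cells, and 5.87% of them were seen in fewer cells than Jak1.

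Jak1 had the highest transcript level of its family in most of these cells. The mean level per kilobase was 17.9 CPM for Jak1, 2.17 for Jak2, 1.93 for Jak3 and 1.30 for Tyk2, and the last 3 had counts in 11, 7 and 15 cells. Within single cells Jak1 exceeded the highest of the other 3 in 41, was lower in 12, and all were at 0 in 8. Exons of Jak1 share 4 bases with Raver2 on the opposite strand and 172 with a processed pseudogene, Gm12785, on the same strand, which had counts in 0 cells.

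Stat3 (ENSMUSG00000004040, chromosome 11, 100885098 to 100939540, minus strand), the transcription factor activated by Jak1, had counts in 46 cells (75.4%, 62.7 to 85.5). Its level ran from 0 through a median of 33.8 to 299 CPM, with quartiles of 0.465 and 120. The highest cells were G03 (299), B04 (273) and D09 (263), and 15 cells had no counts. The mean was 66.6 ± 84.0 CPM (SD over 61 cells), or 62.7 without the cell in G03. Genes of like mean had counts in a median of 51 cells, and 26.8% of those 1222 genes were seen in fewer cells than Stat3, so its detection was not unusual for its level.

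Per kilobase, the mean level was 6.99 CPM for Stat3, 3.43 for Stat6, 3.04 for Stat4 and 1.86 for Stat2. Stat5b (0.273) and Stat5a (0.0702) were lower still. Within cells, Stat3 exceeded Stat6, the factor of interleukin-4 signalling, in 38 and was lower in 12. It exceeded Stat4 in 42 cells and was lower in 7, and exceeded Stat2 in 42 and was lower in 10. Stat3 was thus the higher gene in most cells in each of these pairs. Stat3 and Stat5a share 72 exon bases on opposite strands, and Stat5a had counts in 7 cells.

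Socs3 (ENSMUSG00000053113, chromosome 11, 117966079 to 117970047, minus strand), the feedback inhibitor, had counts in 21 cells (34.4%, 22.7 to 47.7), and in 8 of these the count was between 1 and 9. Its level ran from 0 through a median of 0 to 211 CPM, with an upper quartile of 0.625. The highest cells were G09 (211), B04 (96.9) and G03 (69.3), then E03 (54.9), A09 (45.7) and F07 (41.8). A single cell, G09, held 32.2% of the summed level and 3 cells held 57.6%, the most uneven split of the 5 genes. The mean was 10.7 ± 32.2 CPM (SD over 61 cells). Socs3 was nevertheless detected about as often as other genes of its level: 1101 such genes had counts in a median of 22 cells, and 43.1% were seen in fewer cells.

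The cells with the most Socs3 did not share one pattern of the upstream genes. G09 had 849 counts of Socs3 and 1884 of Jak1, with 2 of Stat3, 14 of Il6st and none of Lifr. B04 had 409 counts of Socs3 and 1151 of Stat3, with 1 of Il6st and none of Lifr. G03 had counts of all 5 genes. Over all 21 cells with Socs3, 18 also had counts of Stat3 and 18 of Jak1, while 13 had none of Lifr and 11 none of Il6st. Among all 61 cells, 46 had counts of Stat3 and 49 of Jak1, while 36 had none of Lifr and 18 none of Il6st. G09 also had 57.9 CPM of the pericyte and fibroblast gene Pdgfrb and 168 CPM of trophectoderm markers, Cdx2 and Krt7, and the part of these in its Socs3 level was not tested.

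Socs3 had the third highest mean level of the 8 SOCS family genes, from a few cells. Socs2, which restrains growth hormone signalling, had counts in 58 cells and a mean of 13.0 CPM per kilobase, against 3.71 for Socs3, and exceeded Socs3 in 52 cells. Socs4 (4.0), Socs6 (3.31) and Socs5 (3.36) had means near that of Socs3, with counts in 42, 49 and 23 cells, and Socs7 (1.15), Socs1 (1.09) and Cish (0.85) lower ones. Within cells, Socs3 was above Cish in 21 and below in 6, above Socs1 in 17 and below in 13, and level with Socs7 at 19 cells each way, while Socs6 was higher in 39 cells against 14. The highest of the 7 others exceeded Socs3 in 56 cells. Of 8 other restraints of the pathway, 6 were detected in more cells than Socs3: the phosphatase genes Ptpn2 and Ptpn11 had counts in 55 cells each and Ptpn1 in 49, and the STAT inhibitor genes Pias2, Pias4 and Pias1 in 59, 49 and 43. Ptpn6 (19 cells) and Pias3 (17) were seen in fewer. The median kept gene had counts in 43 cells, so most kept genes were also seen in more cells than Socs3. Mean levels per kilobase ran from 1.19 CPM for Pias3 to 48.6 for Pias2 and 48.8 for Ptpn2.

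**Figure D2:**
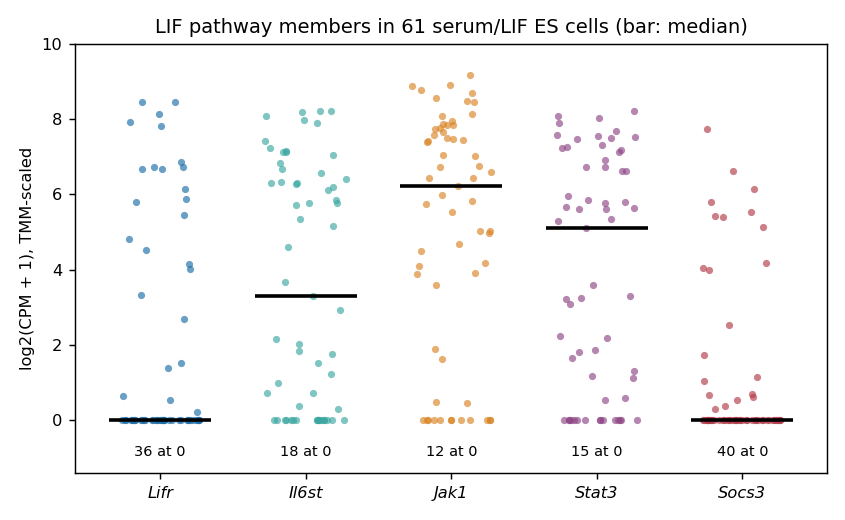
Level of each gene as log2(CPM + 1), 1 point per cell, 61 cells, with the median as a bar and the number of cells without counts printed below. Medians lie at 0 for Lifr and Socs3, where 36 and 40 cells had no counts, and above 0 for Il6st, Jak1 and Stat3.

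On the scale of mean CPM per kilobase of exon, the order of the levels was Jak1 (17.9), Stat3 (6.99), Il6st (5.50), Socs3 (3.71) and Lifr (3.51). The SD over cells exceeded the mean for each gene, and the single-cell values of neighbours in this order overlapped. Whether their means differ was not tested. Within cells, Jak1 exceeded Stat3 in 37 and was lower in 23, while Stat3 exceeded Il6st in 31 and was lower in 27. Il6st exceeded Socs3 in 37 cells and was lower in 17. Lifr and Socs3 could not be ordered, with Lifr higher in 20 cells, Socs3 higher in 18 and both at 0 in 23. Between the ends of the order the count was more one-sided: Jak1 exceeded Lifr in 42 cells against 12, and Socs3 in 47 against 5.

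Cell-to-cell variation was measured as the squared coefficient of variation (CV) divided by the value of the trend fitted over all kept genes at the same mean. The ratio was 4.0 for Lifr, 2.64 for Jak1, 2.39 for Il6st, 2.36 for Socs3 and 2.04 for Stat3. All 5 thus lay above the trend, as did 68.4% of all kept genes, and all 5 above the median kept gene. That gene had a ratio of 1.41, and the pluripotency factors Pou5f1 and Sox2 had 1.13 and 1.26. Lifr was the most variable of the 5, above 96.9% of kept genes, and its ratio was 3.69 without the cell in G03. Stat3, above 75.4% of kept genes, was close to the upper quartile of 2.03. The ratio of Socs3 rested on 1 cell: without G09 it was 1.23, below that of the median gene, whereas the other 4 kept 1.96 to 3.69 without their own highest cell.

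**Figure D3:**
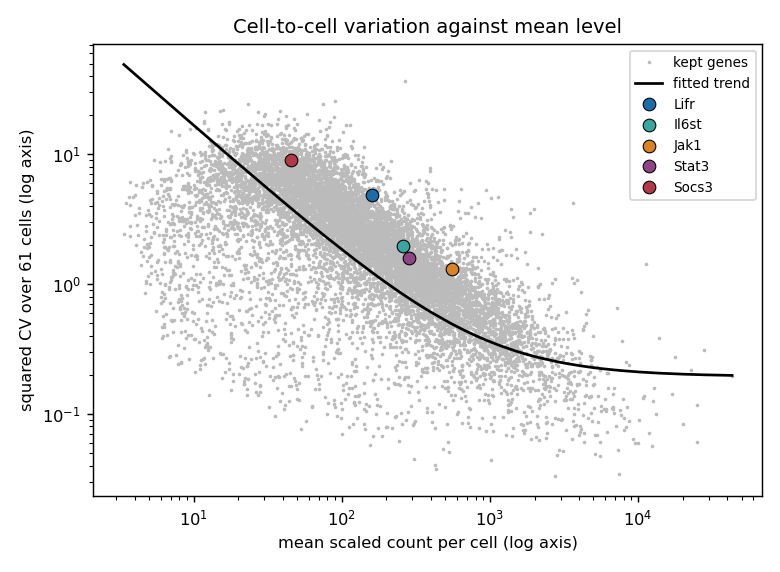
Squared CV over 61 cells against the mean scaled count per cell, both on log axes, for all 10868 kept genes (gray), with the fitted trend as a line and the 5 genes in colour. All 5 lie above the trend, with Lifr 4.0 times and Stat3 2.04 times the fitted value.

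The 5 genes were at most weakly related to each other across cells. Over the 10 pairs, Spearman's rho of CPM over 61 cells ran from -0.30 to 0.25, and the points share 1 culture, the depth of each library and a common number of genes detected. The 3 highest values joined Lifr with Stat3 (0.25), Lifr with Il6st (0.23) and Stat3 with Socs3 (0.22). The pair of receptor and kinase genes showed little: rho was 0.07 for Il6st with Jak1 and -0.07 for Lifr with Jak1. Jak1 and Stat3, kinase and substrate, stood at -0.06. In counts this sparse values of such a size are no finding, and they moved between the upper and lower rows of the plate, with Lifr and Stat3 at 0.13 in rows A to D (33 cells) and 0.47 in rows E to H (28 cells).

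The lowest pair was Il6st with Socs3, at -0.30, where Pearson's r on log2(CPM + 1) was -0.18. Of all kept genes, 0.34% had a lower rho with Socs3 and 1.39% a lower rho with Il6st. Only 10 cells had counts of both, 33 had Il6st alone, 11 Socs3 alone and 7 neither. The value was -0.41 in rows A to D and -0.14 in rows E to H. Stat3 and Socs3, factor and target, stood at 0.22 over all cells, 0.44 in rows A to D, 0.06 in rows E to H, and 0.41 over the 18 cells with counts of both. Jak1 and Socs3 reached 0.60 over the 18 cells with counts of both but 0.17 over all cells, and 0.04 once both were regressed on the share of genes detected. In such a regression the cells without counts are ordered by the share itself, so values of sparse genes can move through the regression alone.

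**Figure D4:**
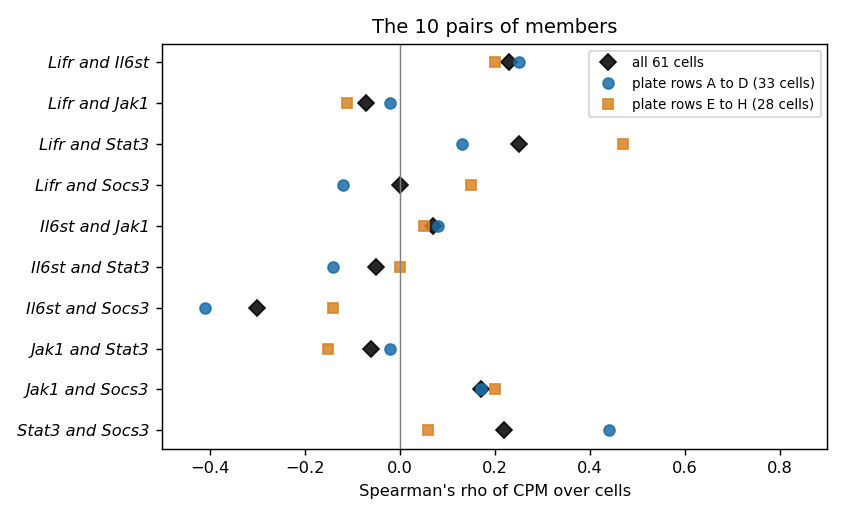
Spearman's rho of CPM for the 10 pairs of genes over all 61 cells (diamonds), over the 33 cells of plate rows A to D (circles) and the 28 cells of rows E to H (squares). Values over all cells lie between -0.30 and 0.25, and the sets of rows differ most for Stat3 with Socs3 and Lifr with Stat3.

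Of the 5, Jak1 moved most with the number of genes detected per cell (rho 0.36), which is above the 95th percentile of 0.35 over kept genes. The value was 0.20 for Socs3, 0.19 for Stat3, 0.06 for Il6st and -0.06 for Lifr, against a median gene at 0.11. With total counts the 5 genes had rho between -0.11 and 0.16, and with the mitochondrial share between -0.11 and 0.15.

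STAT3 targets, a list of 14 genes of which 11 passed the filter, had a median correlation with Stat3 somewhat above that of all genes. Of the 14, 8 had counts in more than 30 of the 61 cells, as had 68.9% of kept genes. The kinase genes Pim3 and Pim1 had counts in 57 and 55 cells, the pluripotency factors Klf5, Tfcp2l1 and Klf4 in 56, 39 and 34, Sgk1 in 49, Junb in 44 and Myc in 38. Fbxo15 had counts in 29 cells, Bcl3 and Ier3 in 19 each, Tbx3 in 13, Gbx2 in 12 and Pramel7 in 0. The median rho of the 11 genes with Stat3 was 0.15, against 0.01 for all kept genes, with values from -0.13 to 0.32 and 8 of 11 above 0. Only Sgk1 (0.32) reached 0.3, where 1.16% of kept genes did, and without the cell in G03 0 of the 11 did. With Socs3 the same 11 genes had a median of 0.01, against 0.02 for all kept genes, none at or above 0.3 (1.33% of kept genes) or at or below -0.3 (0.340%), and values from -0.17 to 0.22. With Lifr the median was 0.03, with Il6st 0.09 and with Jak1 -0.01.

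Within its family, Socs3 was closest to Socs1, a second cytokine-induced inhibitor (rho 0.32, and 0.40 after both were regressed on the share of genes detected). This was 1 of 6 measured SOCS genes at 0.3 or more, beside 1.33% of kept genes, and their median was 0.02. Socs3 and Socs1 each had no counts in 40 cells, which the regression orders by the share itself, and its part in the 0.40 was not tested. With Stat3, 0 of the 6 SOCS genes reached 0.3, beside 1.16% of kept genes, and their median was 0.04. Socs2, named after its value was seen, was the highest of them, just under the limit (0.30 after rounding).

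Naive pluripotency genes, which mark the state that LIF supports, had a median rho over all 61 cells of 0.16 with Lifr and -0.26 with Jak1. Among all kept genes the median was -0.02 with Lifr and 0.05 with Jak1. All 10 measured naive genes were above 0 with Lifr and all 10 below 0 with Jak1. They were read in the same cells, so their signs are not separate results. Regressing on the share of genes detected gave medians of 0.30 for Lifr and -0.18 for Jak1, against -0.04 and -0.01 for all kept genes. Lifr had no counts in 36 cells, which this regression orders by the share itself, and its part in the rise was not tested. With Il6st, Stat3 and Socs3 the medians were 0.06, 0.06 and -0.06. The cells were also cut at the largest gap of a naive score, the mean z-score over 10 measured naive genes. That gap lay between 0.371 and 0.723, with 50 cells below and 11 above. Any score has a largest gap, and whether this one parts separate groups of cells was not tested. Among the 50 cells the median rho of the 10 genes was -0.15 with Lifr, -0.07 with Il6st, -0.10 with Jak1, -0.06 with Stat3 and -0.03 with Socs3. Among the 11 cells the medians were -0.02, -0.20, 0.14, 0.22 and 0.08 in the same order, over few points. The sets were cut on these same genes, which narrows their range, so the values within sets do not show that a relation is absent.

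Formative and primed genes, which mark cells on the way out of the naive state, had a median rho with Lifr of -0.18 over all 61 cells. The median of all kept genes was -0.02. All 9 measured genes of the list were below 0, over the same cells. Otx2, a factor of the formative state named after its value was seen, had the lowest value (-0.33) and was the only one of the 9 at or below -0.3, where 1.49% of kept genes were. Without the cells in B10 and F07, both high in Lifr, the median was -0.13 and 2 of 9 genes were above 0. In the 50 cells below the naive gap the median was -0.05 and 3 of 9 genes were above 0.

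Over all cells, the list with the highest median for any of the 5 genes was that of interferon-inducible genes with Jak1, which also serves the interferon receptors. The median rho of 9 measured genes was 0.32, against 0.05 for all kept genes, and all 9 were above 0. A rho of at least 0.3 was found for 5 of 9, beside 5.32% of kept genes. Named after their values were seen, these were B2m, the light chain of MHC class I (0.47), the transcription factor Irf1 (0.41), the ubiquitin-like modifier Isg15 (0.38) and the GTPase genes Irgm1 (0.36) and Gbp3 (0.32). The proteasome genes Psmb8 (0.21) and Psmb9 (0.09) and the peptide transporter gene Tap1 (0.10) were lower. Interferon-inducible genes were not alone in this direction. The median with Jak1 was 0.18 for 9 measured immediate-early genes, all 9 above 0, and 0.14 for 9 formative and primed genes, 7 of them above 0. In each of these lists 2 of 9 genes reached 0.3. Naive genes (-0.26) and STAT3 targets (-0.01) had medians below 0. The median of the interferon-inducible list was 0.26 in plate rows A to D and 0.43 in rows E to H. It was 0.24 in the 50 cells below the naive gap and 0.01 in the 11 above it. Because Jak1 moved with the number of genes detected, the values were recomputed after regression on it. The interferon-inducible median was then 0.28, and 3 of 9 genes reached 0.3, beside 1.45% of kept genes. With Stat3 the interferon-inducible genes had a median of -0.16, against 0.01 for all kept genes, and all 9 were below 0.

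**Figure D5:**
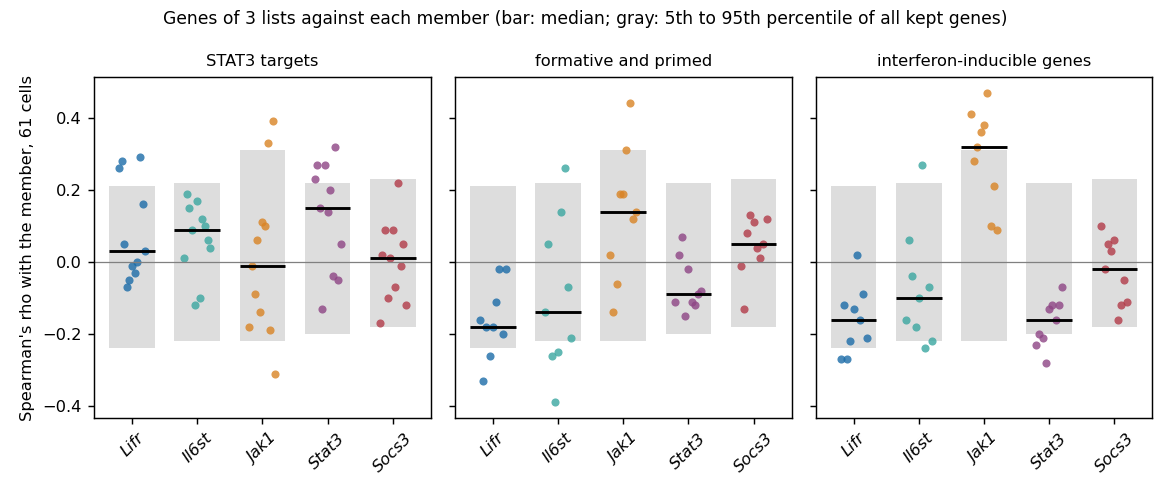
Spearman's rho over 61 cells of each measured gene of 3 lists with each of the 5 genes, 1 point per gene, with the list's median as a bar and the 5th to 95th percentile of all kept genes in gray. Interferon-inducible genes have a median of 0.32 with Jak1 and -0.16 with Stat3, and STAT3 targets a median of 0.15 with Stat3.

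Over all kept genes, 144 (1.33%) had a rho with Jak1 of at least 0.4 in size, 110 of them positive, against 25 (0.230%) for Lifr, 25 (0.230%) for Il6st, 17 (0.156%) for Stat3 and 16 (0.147%) for Socs3. This order turned when the values were regressed on the share of genes detected: 72 genes (0.663%) for Lifr, 36 (0.331%) for Jak1, 35 (0.322%) for Socs3, 23 (0.212%) for Il6st and 17 (0.156%) for Stat3. That regression orders the cells without counts by the share itself, and its part in the rises for Lifr and Socs3 was not tested. The 5 genes most like Jak1 were Pdlim7, an actin-associated LIM protein gene (0.57), the extracellular matrix gene Efemp1 (0.55), Pon2 (0.55), Soat1 (0.52) and the receptor gene Notch2 (0.52). None of them stayed among the first 5 after the regression, where Efemp1 (0.42) ranked 9, Pon2 (0.41) 13, Pdlim7 (0.40) 20, Soat1 (0.37) 46 and Notch2 (0.35) 58. The gene most like Stat3 was Gadd45g, a stress- and cytokine-responsive gene (0.60, and 0.51 once regressed on the share of genes detected), followed by Zfp472 (0.49), Crmp1 (0.48), Rps6kc1 (0.46) and Nckipsd (0.43).

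Socs3 was most like Dedd2 (0.58), followed by the chromatin remodelling gene Bptf (0.47), the replication kinase gene Cdc7 (0.44), Sdf2 (0.44) and Vps37a (0.43). For Il6st the closest were the small GTPase gene Rras (0.53), Cln6 (0.45), the pseudogene Fabp3-ps1 (0.44), Cd276 (0.44) and Ptms (0.44). For Lifr they were Zfp420 (0.52), the histone H4 methyltransferase gene Kmt5c (0.50), the imprinting factor gene Zfp57 (0.45), Ipmk (0.45) and Gk (0.43). The regression kept the first place of Gadd45g, Dedd2 and Rras and put Kmt5c (0.63) first for Lifr, while Zfp420, with counts in 11 cells, then stood at 0.08 and Bptf, for Socs3, at 0.33 and rank 148. These are the extremes of 10867 values over the same 61 cells, and no other cells were at hand to recompute them in.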

How the data were processed

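Single-cell RNA was parted from DNA by G&T-seq and made into libraries with Nextera XT, per the labels' protocols. The submitters' processing notes name GSNAP, bedtools 2.19.1, SAMtools 0.1.18, DESeq2 and the build GRCm38. How reads were assigned to genes, with which annotation and strand setting, is not given in the sources used here. The authors deposited whole-number counts per gene for 36300 rows, 95 of them ERCC spike-ins (at most 4 counts in a cell), which were left out. The deposited normalized table was not used, because its factor to the counts changes from gene to gene within a cell. Symbols were found for 34880 of 36205 genes.

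Counts were scaled by TMM (edgeR 4.0.16) to CPM. Levels between genes were compared per kilobase of the union of GENCODE M21 exons. Variation was the ratio of squared CV to the trend of modelGeneCV2 (scran 1.30.0), without its p-values. Likeness was Spearman's rho of CPM over cells (scipy 1.17.1), and both procedures were tested on simulated data. Intervals are exact Clopper-Pearson and cover counting error only. Pairs of cells had a Pearson r of 0.369 to 0.613, so none looked like 1 library deposited again.

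The members and lists were chosen with earlier results of these data known. Named genes are the members, list genes by level, list genes past a rho of 0.3 with Stat3 or Socs3, and the 5 genes most like each member; other names are said to be chosen after their values. Alternatives were DESeq2 1.42.0 size factors, plain totals, other filters, at least 10 counts for detection, thinning to equal depth, log values, regressing on the number of genes detected, and leaving out cells. The regression was fitted to log values and its residuals were ranked, which orders the cells without counts of a gene by the number of genes detected. For the lists, plate rows A to D and E to H separately, sets parted by the naive genes, and leaving out G03 or B10 and F07 were added after seeing the data.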

Additional observations from a re-analysis of the deposited data

How the results depend on the processing

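Of 433 recomputed values, 386 moved by less than the limit set for each and 47 moved further. Of these 47, 14 took the opposite sign, all of them list medians: 12 within the sets parted by the naive genes, such as naive genes with Lifr (-0.15 against 0.16) and with Jak1 (0.14 against -0.26), and 2 in plate rows A to D. Another 15 correlation values moved by less than the limit but also took the opposite sign, among them Lifr with Jak1 (0.01 without B10 and F07, against -0.07). At least 10 counts for detection left 35 cells for Il6st, 38 for Stat3 and 13 for Socs3. Thinning every cell to 2417702 counts left Lifr in 25, Il6st in 42, Jak1 in 49, Stat3 in 46 and Socs3 in 19. Over cells with counts of both genes, rho was -0.40 for Lifr with Jak1, 0.29 for Lifr with Socs3 and 0.60 for Jak1 with Socs3. Regression on the share of genes detected gave 72 genes past a rho of 0.4 for Lifr, 36 for Jak1 and 35 for Socs3. A filter of 10 counts in 30 cells gave 15 for Il6st and 9 for Stat3, and gave no variability ratio for Lifr and Socs3, which it drops. No filter gave 29 genes for Socs3. The variability ratio of Socs3, 2.36, was 3.73 with no filter and, with the usual filter, 1.23 without its highest cell. The cause was not tested. Depth limits a count of 0 to 0.45 to 1.26 CPM. No paired analysis was possible because the samples form 1 group.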
